A study of Mus musculus with 20 samples.

Results

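Immediate early genes were examined in the arcuate nucleus, as 10 of the 22048 genes of the count tables, chosen by symbol from a named list and matched through the gene identifier. They comprise subunits of the AP-1 dimer (Fos, Fosb, Jun, Junb), the zinc finger factors Egr1 and Egr3, the orphan nuclear receptor Nr4a1, the cytoskeleton-associated Arc, the neuron-restricted factor Npas4 and the nuclear regulator Ier2, and all 10 were present in the tables of both datasets. Immediate early genes are transcribed within minutes of a stimulus without new protein synthesis, and their RNAs are short-lived. In neurons, calcium entry and kinase signalling through the cyclic AMP response element binding protein and the serum response factor switch them on, which is why they serve as markers of recent neuronal activity in the hypothalamus.

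RNA was measured in arcuate nuclei cut out by laser capture from male C57BL6/J mice, given as 10 weeks old, that drank either corticosterone (Cort) at 75 µg/ml in 1% ethanol or the 1% ethanol vehicle, for 2 days or for 4 weeks. Each dataset held 5 vehicle and 5 Cort samples, of which the study kept 3 vehicle and 4 Cort for its comparisons. The 4 week mice were fasted for 16 h and refed for 24 h before tissue was taken, and the 2 day mice were not described as fasted. All mice were killed by rising CO2. Acclimatisation and baseline periods preceded treatment, so the mice were older than the stated age when tissue was taken. The datasets also differed in section thickness, slides, laser system and sequencer, so that duration of treatment cannot be told apart from these. Libraries are named here by their column, C01 to C10 in each dataset. The samples left out by the study were vehicle C07 and C09 and Cort C08 at 2 days, and vehicle C01 and C05 and Cort C06 at 4 weeks. The labels do not state that each sample is a separate animal, so p-values measure the spread between these samples.

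The libraries were shallow for transcripts of this abundance. Totals over genes were 2487063 to 5748223 counts at 2 days and 1065776 to 5196364 at 4 weeks, so that 3 counts, the limit that a count of 0 allows and the floor used here, corresponded to 0.512 to 1.19 CPM (counts scaled to TMM-adjusted library size) at 2 days and 0.619 to 2.75 at 4 weeks. Values at or under the floor are printed as measured, and no direction was read from them alone. Between 4 and 8 of the 10 immediate early genes stood above this floor in a 2 day library, and between 1 and 5 in a 4 week library. Jun and Egr1 together held 68.9% to 91.2% of the counts of the 10 genes in a library at 2 days and 61.1% to 99.2% at 4 weeks. Vehicle C01 of the 4 week dataset, the shallowest library and one of those left out, stood apart with 19 counts over all 10 genes.

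Promoter windows of Fos, Npas4 and Nr4a1 are shown because they hold the short core of the cyclic AMP response element, known for induction by neuronal activity, and because Npas4 and Nr4a1 were at 0 counts in most 4 week Cort libraries. In GENCODE annotation of GRCm38, Fos lies on chromosome 12 (85473890 to 85477273, + strand, 4 exon blocks), Npas4 on chromosome 19 (4984355 to 4990316, - strand, 6 exon blocks) and Nr4a1 on chromosome 15 (101254269 to 101274795, + strand, 10 exon blocks). The RefSeq start used for Nr4a1 falls inside that span. They are RefSeq sequences of GRCm38.p6, from 250 bases before to 50 bases after the RefSeq start, written 5′ to 3′ on the gene's strand. Capitals mark the core TGACG on either strand (read as CGTCA on the other) and the TATA box TATAAA.
Fos promoter, chr12:85473640-85473939, + strand: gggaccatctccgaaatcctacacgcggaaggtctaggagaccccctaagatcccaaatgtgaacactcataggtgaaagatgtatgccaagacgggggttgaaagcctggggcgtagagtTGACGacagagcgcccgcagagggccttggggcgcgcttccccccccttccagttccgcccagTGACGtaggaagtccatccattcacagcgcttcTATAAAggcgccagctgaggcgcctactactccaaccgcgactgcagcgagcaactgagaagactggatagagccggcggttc
Npas4 promoter, chr19:4989922-4990221, - strand: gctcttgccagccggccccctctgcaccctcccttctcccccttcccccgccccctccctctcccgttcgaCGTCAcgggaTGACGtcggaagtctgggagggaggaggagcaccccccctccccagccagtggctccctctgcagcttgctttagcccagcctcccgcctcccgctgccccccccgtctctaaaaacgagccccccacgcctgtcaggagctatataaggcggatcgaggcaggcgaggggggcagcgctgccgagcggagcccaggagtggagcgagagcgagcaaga
Nr4a1 promoter, chr15:101266596-101266895, + strand: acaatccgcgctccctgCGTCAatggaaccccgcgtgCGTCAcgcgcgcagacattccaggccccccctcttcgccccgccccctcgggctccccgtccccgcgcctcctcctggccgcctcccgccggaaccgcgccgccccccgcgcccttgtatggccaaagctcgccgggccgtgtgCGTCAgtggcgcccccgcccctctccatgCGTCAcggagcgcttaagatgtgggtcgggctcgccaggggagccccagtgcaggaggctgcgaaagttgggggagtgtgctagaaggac

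The core TGACG occurred in 20.8% of 32841 promoter windows of this length, on either strand. Fos held 2 cores, beginning 129 and 66 bases before the start, and a TATAAA 33 bases before it, a sequence found in 13.6% of windows. Npas4 held 2 cores that each extended to the 7 bases TGACGTC on one strand or the other, a stretch present in 3.21% of windows, and Nr4a1 held 4 cores. Fosb and Junb had 1 core each and Jun none in its window. The longest transcripts of the 10 genes had a GC content of 51.3% to 62.6%, beside a median of 49.5% over genes tested at 2 days. The full palindrome TGACGTCA and the serum response element were found in none of the 6 windows searched, against 1.79% and 1.63% of all windows. Sequence farther upstream or downstream was not searched, so these absences hold for the windows only. They do not show that Fos or any other member lacks either element. The matches that were found describe letters only and say nothing of which factors were bound in these mice. The windows of Fosb, Jun and Junb were searched and are not printed, and promoters of Egr1, Egr3, Arc and Ier2 were not used here.

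None of the immediate early genes that could be tested was called different between Cort and vehicle, at 2 days or at 4 weeks. In edgeR's quasi-likelihood test with Benjamini-Hochberg adjustment, 0 of the 6 that passed the filter on low counts at 2 days and 0 of the 3 at 4 weeks were called at Padj below 0.1, beside 0.065% of the 12309 genes tested at 2 days and 0.0446% of the 11211 at 4 weeks. At an unadjusted P below 0.05 the count was also 0 in both, beside 5.97% and 4.91% of all genes tested, and DESeq2 called 0 in both at either threshold. The median log2 fold change was -0.25 over the 6 genes at 2 days and 0.01 over the 3 at 4 weeks, beside 0.02 and 0.04 over all genes tested. The filter was not passed by 4 of the 10 at 2 days and 7 of the 10 at 4 weeks, so their counts are given without a fitted fold.

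**Figure D1:**
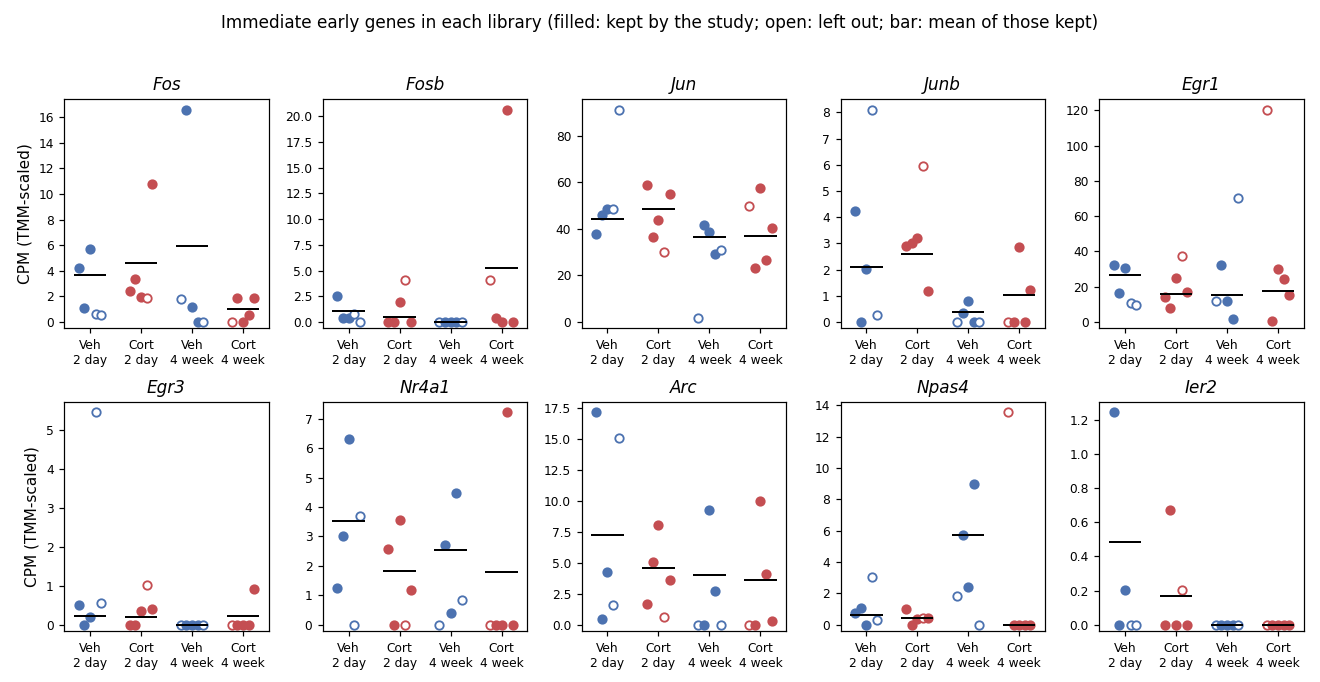
TMM-scaled counts (CPM) of each immediate early gene in every library, with vehicle in blue and Cort in red at 2 days and 4 weeks. Filled points are samples kept by the study, open points those left out and bars the mean of the kept samples. Vehicle and Cort points overlap in every panel once open points are counted, and Fosb, Npas4 and Egr1 at 4 weeks each have 1 library above the others.

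Jun, which encodes the central dimer partner of AP-1, was the most abundant of the group and the least variable of those tested. At 2 days its level was 37.8, 46.1 and 48.6 CPM in vehicle C02, C04 and C05, and 48.4 and 91.3 in the left-out C07 and C09. With Cort it was 58.7, 36.4, 43.8 and 54.9 CPM in C01, C03, C06 and C10, and 30.3 in the left-out C08. The groups overlapped, with the highest value in a vehicle library and the lowest in a Cort library, and the means of the kept samples were 44.2 CPM ± 5.65 (SD, n = 3) and 48.4 ± 10.2 (SD, n = 4). The log2 fold change was 0.14 (SE 0.29, 95% interval -0.46 to 0.74, edgeR Padj = 0.972). At 4 weeks vehicle C02, C03 and C04 had 41.6, 38.6 and 29.1 CPM, and the left-out C05 and C01 had 31.0 and 1.84. Cort C07, C08, C09 and C10 had 23.1, 57.6, 26.8 and 40.3 CPM, and the left-out C06 had 49.7. Vehicle values lay inside the range of the Cort values except in C01, where Jun had 2 counts, under the floor. The 4 week log2 fold change was 0.01 with an interval from -1.40 to 1.42 (edgeR Padj = 1.00). Of the exon bases of Jun, 7.28% are shared with the antisense gene Junos, and the sources do not say whether the counting used strand.

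Fos, the partner of Jun most used to map active neurons, had 2 to 28 counts per library at 2 days. Vehicle samples C02, C04 and C05 had 4.23, 1.08 and 5.69 CPM, and the left-out C07 and C09 had 0.607 and 0.570, from 3 and 2 counts. Cort samples C01, C03, C06 and C10 had 2.39, 3.37, 1.97 and 10.7 CPM, and the left-out C08 had 1.84. The ranges overlapped, and Cort C10 alone lay above every vehicle sample. The log2 fold change was 0.31 (SE 0.92, 95% interval -1.61 to 2.23, edgeR Padj = 0.975), and it was -0.51 without C10. At 4 weeks Fos was at 49, 3 and 0 counts in vehicle C02, C03 and C04 and at 2 and 0 in C01 and C05. Cort C07, C08, C09 and C10 had 9, 0, 1 and 6 counts and C06 had 0. Vehicle C02 thus held 70.0% of all 4 week Fos counts, and no other library exceeded 9. In 7 of the 10 libraries Fos was at or under the floor, and it did not pass the filter at 4 weeks.

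Fosb, whose truncated product accumulates with repeated stimulation, was sparse. At 2 days it was at 10, 2 and 2 counts in vehicle C02, C04 and C05, at 4 and 0 in C07 and C09, at 0, 0, 11 and 0 in Cort C01, C03, C06 and C10 and at 20 in C08. At 4 weeks all 5 vehicle libraries were at 0 counts, and Cort C06, C07, C08, C09 and C10 had 13, 2, 0, 40 and 0. Cort C09 held 72.7% of these counts, at 20.6 CPM. Against the floor of 3 counts in each vehicle library, the Cort mean was at least 4.43-fold higher over the kept samples and at least 3.32-fold higher over all 10, and in 2 of the 5 Cort libraries Fosb was at 0 like the vehicle. Both bounds cover counting error in the vehicle libraries only and not the spread between samples. Both rested on C09, which held 95.2% of the counts of the kept Cort samples. Without it the Cort mean was 0.138 CPM over the kept samples and 1.13 over all, under the mean vehicle floors of 1.19 and 1.52, so that no fold could be given. Without a filter on low counts, edgeR placed Fosb under an unadjusted P of 0.05 in the kept samples (Padj = 0.678) and over all 10 (Padj = 0.50), beside 6.94% and 9.56% of genes in those fits. Without C09 it did not (edgeR Padj = 0.874), nor without any 1 of the 3 kept vehicle samples (edgeR Padj = 0.820 to 0.898). The exact permutation test over the 10 samples gave p = 0.167. With only 3 libraries above 0 this was the lowest p it could give, so it could not pass 0.05.

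Junb, an AP-1 subunit that can restrain Jun, had 17, 0 and 10 counts in vehicle C02, C04 and C05 at 2 days and 40 and 1 in C07 and C09. Cort C01, C03, C06 and C10 had 17, 9, 18 and 3 counts and C08 had 29. The kept means were 2.09 CPM ± 2.12 (SD, n = 3) and 2.59 ± 0.937 (SD, n = 4), and the log2 fold change was 0.34 (SE 1.09, edgeR Padj = 0.976). At 4 weeks Junb was above 3 counts in 2 libraries, Cort C08 with 12 and Cort C10 with 4, and had at most 2 counts in the vehicle libraries. Of its exon bases, 7.52% are shared with Prdx2 on the opposite strand.

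Egr1, an immediate early transcription factor that responds to growth factors and synaptic activity, had the lowest P among the 6 genes tested at 2 days. Its level was 32.6, 16.6 and 30.7 CPM in vehicle C02, C04 and C05, and 10.9 and 9.41 in the left-out C07 and C09. It was 14.2, 7.75, 25.0 and 17.1 CPM in Cort C01, C03, C06 and C10, and 37.5 in the left-out C08. Among the kept samples 2 of 3 vehicle values lay above all 4 Cort values, whereas the left-out samples lay the other way round. The kept means were 26.6 CPM ± 8.74 (SD, n = 3) with vehicle and 16.0 ± 7.16 (SD, n = 4) with Cort. The log2 fold change was -0.72 (SE 0.44, 95% interval -1.63 to 0.20, edgeR Padj = 0.889), and over all 10 samples it was 0.03. Without Cort C06 it was -1.02 with an unadjusted P below 0.05 (edgeR Padj = 0.733). At 4 weeks Egr1 ranged more widely than any other tested member, with 32.5, 12.1 and 1.79 CPM in vehicle C02, C03 and C04 and 11.9 and 70.0 in C01 and C05. Cort C07, C08, C09 and C10 had 0.619, 30.2, 24.2 and 15.1 CPM, and C06 had 120.3. The highest and the lowest libraries were both Cort, and vehicle values fell between them. The log2 fold change was 0.17 with an interval from -2.38 to 2.72 (edgeR Padj = 0.995).

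Egr3, a related zinc finger factor, was near the limit of detection. At 2 days 27 of its 40 counts came from the left-out vehicle C07, Cort C08 had 5, and the other 8 libraries had at most 2. At 4 weeks 9 libraries were at 0 and Cort C10 had 3 counts. No direction was detectable at this depth.

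Nr4a1, the nuclear receptor also called Nur77, had 5, 14 and 31 counts in vehicle C02, C04 and C05 at 2 days and 0 and 13 in C07 and C09. Cort C01, C03, C06 and C10 had 15, 0, 20 and 3 counts and C08 had 0. Zeros occurred in both groups, and the kept means were 3.52 CPM ± 2.57 (SD, n = 3) with vehicle and 1.83 ± 1.56 (SD, n = 4) with Cort. The log2 fold change was -0.87 (SE 1.04, 95% interval -3.05 to 1.31, edgeR Padj = 0.948). At 4 weeks vehicle C02, C03 and C04 had 8, 1 and 10 counts and C01 and C05 had 0 and 2, whereas 4 of the 5 Cort libraries were at 0 and Cort C09 had 14. That library held the highest value of the dataset at 7.22 CPM, so the groups overlapped. Without C09 and without a filter on low counts, edgeR placed Nr4a1 under an unadjusted P of 0.05 (Padj = 0.719). Leaving out C09 put every remaining Cort sample at 0, which fixed the direction of that fit, so nothing is concluded from it.

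Arc, whose product regulates glutamate receptor trafficking at synapses, had 17.2, 0.431 and 4.27 CPM in vehicle C02, C04 and C05 at 2 days and 1.62 and 15.1 in C07 and C09. Cort C01, C03, C06 and C10 had 1.71, 5.05, 8.04 and 3.58 CPM and C08 had 0.614. Vehicle values spanned the whole Cort range. The log2 fold change was -0.64 (SE 0.91, 95% interval -2.53 to 1.25, edgeR Padj = 0.959), and without vehicle C02 it was 0.97. At 4 weeks Arc was at 0, 23 and 6 counts in vehicle C02, C03 and C04 and at 0 in C01 and C05. It was at 0, 42, 8 and 1 counts in Cort C07, C08, C09 and C10 and at 0 in C06. With zeros in both groups, the fit gave a log2 fold change of -0.15 with an interval from -4.02 to 3.72 (edgeR Padj = 0.995).

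Npas4, a factor induced by calcium entry into neurons, was the only one of the 10 whose kept groups did not overlap, and it did so at 4 weeks. Vehicle C02, C03 and C04 had 17, 6 and 20 counts, equal to 5.75, 2.41 and 8.96 CPM, and Cort C07, C08, C09 and C10 were all at 0. The vehicle mean was 5.71 CPM ± 3.27 (SD, n = 3), which was 6.00 times the mean floor of 0.950 CPM in the kept Cort libraries. That ratio covers counting error only and not the spread between samples. The lowest kept vehicle value was 2.41 CPM, beside a floor of up to 1.55 CPM in the kept Cort libraries. Over all 10 samples the means were 3.79 CPM with vehicle and 2.71 with Cort. Of the 15430 genes with at least 1 count in these 7 samples, 5.28% did not overlap in either direction and 2.78% in this one. The members were looked at in both directions. The left-out samples lay the other way: Cort C06 had 43 counts (13.5 CPM), the highest of all 10 libraries, and vehicle C01 and C05 had 2 and 0. Without a filter on low counts edgeR placed Npas4 under an unadjusted P of 0.05 in the kept samples (Padj = 0.603) but not over all 10 (Padj = 0.970), and the exact permutation test over all 10 gave p = 0.286. Which samples were included therefore decided whether the groups separated. At 2 days Npas4 had 3, 5 and 0 counts in vehicle C02, C04 and C05, 15 and 1 in C07 and C09, 6, 0, 2 and 1 in Cort C01, C03, C06 and C10 and 2 in C08, and the groups overlapped.

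Ier2, a short gene of 1 exon, had 9 counts in all at 2 days, of which 5 were in vehicle C02, and 0 in every 4 week library. It shared the latter with 28.8% of the genes in the table.

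No member separated vehicle from Cort among the 7 kept samples at 2 days, where 5.79% of all genes with at least 1 count did. The exact permutation test over all 10 samples was 2-sided, with 252 divisions and a smallest possible p of 0.00794 without ties. It placed 0 of 10 members under 0.05 at 2 days and 0 of the 9 with counts at 4 weeks. The shares of all genes with at least 1 count were 4.32% and 4.23%. With 3 and 1 libraries above 0 at 4 weeks, Fosb and Egr3 could not reach 0.05, so their outcome says nothing of a difference. The lowest p at 2 days was 0.310, for Fos. The intervals remained wide for all but Jun and Egr1 at 2 days, so a doubling and a halving were both within them for Fos, Junb, Nr4a1 and Arc. For Egr1 the 2 day interval included a halving but not a doubling, and for Jun neither.

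**Figure D2:**
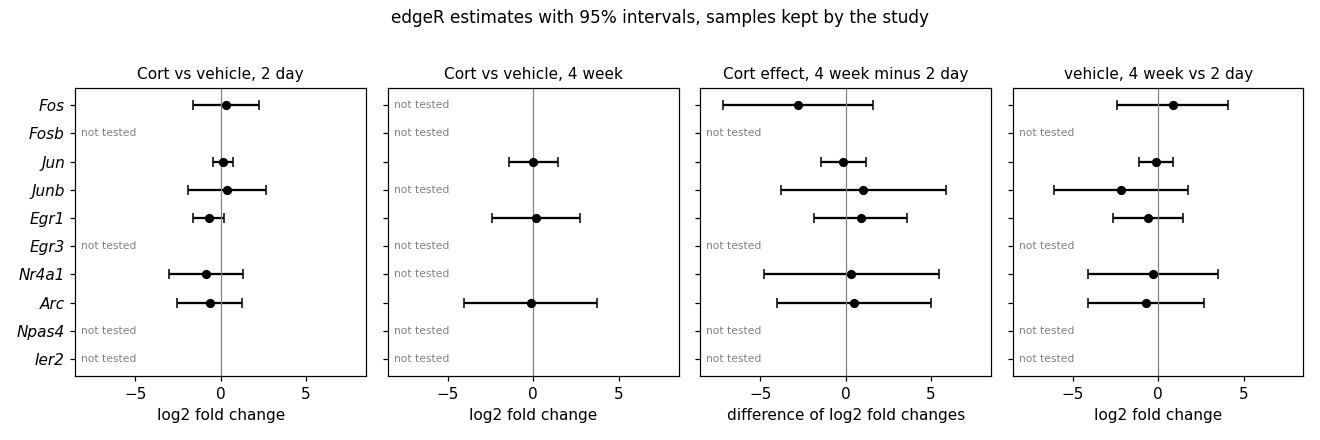
Log2 fold changes with 95% intervals from edgeR for the immediate early genes that passed the filter on low counts, in the 3 vehicle and 4 Cort samples kept per dataset. Panels give Cort against vehicle at 2 days and at 4 weeks, the difference between these effects and 4 week against 2 day vehicle, and every interval includes 0.

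Levels were compared between genes per kilobase of exon. Over the 7 kept samples at 2 days Jun stood at 14.6 CPM per kb, above 73.3% of the genes tested, and Egr1 at 4.59, above 41.4%. Arc at 1.88, Fos at 1.79, Junb at 1.03 and Nr4a1 at 0.728 lay well under the median of 6.16, and the remaining 4 were below 0.2. At 4 weeks, scaled separately, the order again began with Jun at 11.5 and Egr1 at 3.71, followed by Fos at 1.34, Arc at 1.23, Nr4a1 at 0.603, Npas4 at 0.591, Fosb at 0.481, Junb at 0.325, Egr3 at 0.0299 and Ier2 at 0, against a median of 7.01. From Fos down to Junb neighbours in this order lay within each other's spread between samples. The 4 week vehicle SD of Fos (3.93 CPM per kb, n = 3) exceeded its mean of 2.52.

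**Figure D3:**
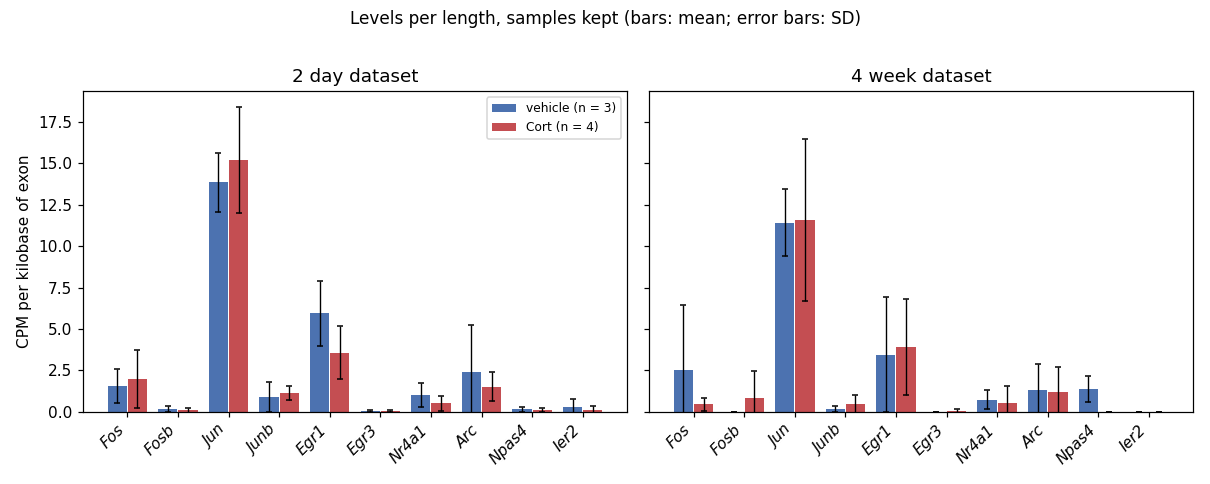
Mean CPM per kilobase of exon of each immediate early gene in the kept samples, with vehicle in blue (n = 3), Cort in red (n = 4) and error bars giving the SD, cut at 0. Jun and Egr1 are the tallest bars in both datasets, and Npas4 at 4 weeks is seen in vehicle only among the samples kept.

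The effect of Cort on the 6 members tested across both datasets was also compared between 4 weeks and 2 days. The difference in log2 fold change was -2.78 for Fos (SE 2.11, edgeR Padj = 0.886), and it was 0.44 without the single 4 week vehicle library C02. It was 1.04 for Junb, 0.88 for Egr1, 0.50 for Arc, 0.33 for Nr4a1 and -0.13 for Jun. Junb was under the floor in all 3 kept 4 week vehicle libraries. Without the single 4 week Cort library C09 the difference for Nr4a1 was -5.51, with an unadjusted P below 0.05 in edgeR (Padj = 0.548). C09 was the only 4 week Cort library with Nr4a1 counts, so that value follows from leaving it out. edgeR's interaction term called 0 of the 6 at Padj below 0.1 and 0 at P below 0.05, beside 0.0157% and 6.49% of 12777 genes, as did DESeq2. Without a filter on low counts Npas4 and Fosb, like 7.11% of all genes, had an unadjusted P below 0.05 in edgeR with Padj = 0.648 and 0.655, on the same zeros and single libraries as above.

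Between the vehicle groups, which differ in fasting, dissection and sequencing as well as in time on ethanol, 1.33% of 12777 genes were called and none of the 6 members was, by edgeR at Padj below 0.1. At P below 0.05 the members called were again 0, beside 12.1% of all genes, and DESeq2 called 0 at both thresholds with the adjusted p of Junb not given. The log2 difference of 4 weeks from 2 days was -2.19 for Junb (SE 1.88, Padj = 0.698 by edgeR), -0.71 for Arc, -0.62 for Egr1, -0.32 for Nr4a1, -0.12 for Jun and 0.86 for Fos. Over all 10 samples of each dataset Junb was at -3.25 with an unadjusted P below 0.05 and Padj = 0.266 by edgeR. Junb had at most 2 counts in each of the 5 vehicle libraries at 4 weeks, under the floor. No direction was read from either Junb value. Summed cell markers also lay apart between these groups, in CPM scaled separately in each dataset rather than jointly as in the fit. The sums were not tested. Tanycyte and ependymal markers summed to 118.7 to 219.2 CPM in kept 2 day vehicle samples and 653.0 to 1002 in kept 4 week ones, neuronal markers to 6235 to 6562 and 4251 to 4853, and astrocyte markers to 4744 to 5213 and 2873 to 3046, and these 3 ranges were also apart over all 5 vehicle samples. Oligodendrocyte markers (901.3 to 948.9 and 1274 to 1466), ventromedial neuron markers (47.0 to 93.3 and 7.64 to 33.5) and red blood cell markers (25.0 to 60.5 and 70.7 to 109.0) were apart in the kept samples and overlapped over all 5. Their part in the differences of the members was not tested.

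Some cell markers differed between Cort and vehicle. At 2 days Agrp was called higher (log2 fold change 1.32, edgeR Padj = 0.0103), and summed arcuate neuron markers were 1865 to 2411 CPM in kept vehicle samples and 2524 to 3346 in kept Cort samples. Over all 10 samples these sums overlapped, at 1865 to 3418 and 2524 to 3966. The oligodendrocyte gene Mobp was also called higher (1.72, edgeR Padj = 0.00324), and the summed oligodendrocyte markers of the kept samples overlapped, at 901.3 to 948.9 and 932.8 to 1494. All 10 arcuate neuron markers and all 8 neuronal markers were detected in each dataset. Markers of the neighbouring ventromedial neurons summed to 38.2 to 97.5 CPM in kept 2 day samples and 3.30 to 102.1 in kept 4 week samples. At 4 weeks Npy was called lower (-2.31, edgeR Padj = 0.0966). The summed arcuate neuron markers of the kept samples overlapped there, at 1832 to 2511 CPM with vehicle and 1225 to 2146 with Cort. Summed neuronal markers were 4251 to 4853 CPM in kept vehicle samples and 5076 to 5667 in kept Cort samples, and astrocyte markers 2873 to 3046 and 3172 to 4373. Over all 10 samples both overlapped, at 4065 to 5447 and 5076 to 5763 for neurons and 1935 to 4078 and 3172 to 4565 for astrocytes. The sums were not tested. In bulk tissue, fewer cells of a type and less RNA per cell cannot be told apart, and the part of these markers in the values of the immediate early genes was not tested.

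The variation between samples of a group lay below the median of all genes for Jun and above it for the other members tested. The biological coefficient of variation estimated by edgeR at 2 days was 0.27 for Jun, 0.41 for Egr1, 0.74 for Fos, 0.77 for Arc, 0.80 for Nr4a1 and 0.81 for Junb, against a median of 0.35 over all genes tested. At 4 weeks it was 0.62 for Jun, 1.04 for Egr1 and 1.47 for Arc, against 0.73. Set against the trend for genes of the same abundance, 3 of 6 members lay above it at 2 days and 2 of 3 at 4 weeks, beside 37.8% and 36.7% of all genes tested, and the ratio to the trend was 0.865 to 1.15. edgeR draws each gene's estimate toward this trend, so ratios near 1 are partly built in and do not show that members vary like other genes. In the kept samples Arc had the highest ratio in both datasets, at 1.14 and 1.15. With all 10 samples Nr4a1 had the highest at 2 days (1.23), and Arc was not tested at 4 weeks.

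**Figure D4:**
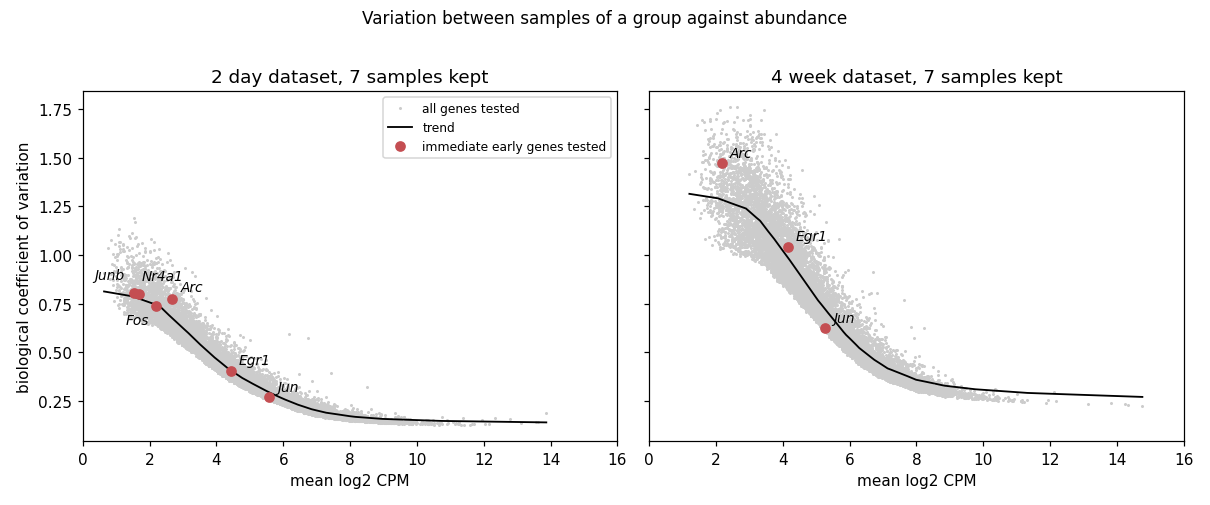
Biological coefficient of variation of all genes tested (grey) against mean log2 CPM, with edgeR's trend as a line and the immediate early genes tested in red, for the 7 kept samples of each dataset. The red points lie near the trend for their abundance, toward which edgeR draws each gene's estimate. The 4 week cloud lies higher than the 2 day cloud.

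No relation of Fos with another member across libraries passed the test. Within treatment groups, over 10 samples per dataset, Pearson's r of Fos with each other member ran from -0.44 (Npas4, 2 days) to 0.42 (Ier2, 2 days), and 8 of 17 relations were positive. In exact permutation within groups 0 of 17 had p below 0.05 for Pearson's r or Spearman's rho, and the smallest adjusted values were 0.986 and 1.00. For Egr1 at 2 days r was 0.39 (rho = 0.285, exact permutation p = 0.281 and 0.434), and 0.39 without the 2 samples farthest from the median of Fos. The same step moved r at 2 days from -0.44 to -0.71 for Npas4, from 0.27 to 0.53 for Arc and from 0.42 to 0.61 for Ier2, and these values were not tested. At 2 days Ier2 was at or under the floor in 9 of the 10 libraries and Npas4 in 7. Fos itself was at or under it in 7 of the 10 libraries at 4 weeks. The r values of Ier2 and Npas4 at 2 days, and all those at 4 weeks, thus rest largely on such counts. The libraries highest for each member differed at 4 weeks: Fos in vehicle C02, Egr1 and Npas4 in Cort C06, Fosb and Nr4a1 in Cort C09, and Jun, Junb and Arc in Cort C08. The 5 genes whose centred log2 CPM was most like that of Fos, by the mean of r over both datasets among 10287 genes, were Ipo9 (0.82), Cntnap1 (0.77), Ddc (0.72), Ciapin1 (0.71) and Vapa (0.71), given as a description only. The mean r of the other members with Fos lay between -0.22 for Npas4 and 0.13 for Egr1.

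Relatives, regulators and effectors of these genes, glucocorticoid-induced genes and heat shock genes were examined as lists, with 118 listed genes in 9 lists. The lists include the members themselves. At 2 days edgeR called 0 of the 95 tested at Padj below 0.1, with 8 at an unadjusted P below 0.05, and at 4 weeks 0 of 83, with 5. Of the 8 at 2 days, 5 belonged to the list of glucocorticoid-induced genes, all 5 higher with Cort, and the median of that list was 0.63 at 2 days and 0.50 at 4 weeks. Its leading genes were Fkbp5, a cochaperone of the glucocorticoid receptor (log2 fold change 1.57, edgeR Padj = 0.244), and the metallothionein Mt2 (0.90, Padj = 0.443) at 2 days, and Mt2 (1.25, Padj = 0.918) and Mt1 (1.45, Padj = 0.990) at 4 weeks. The study, with DESeq2 on the same kept samples, reported Fkbp5 and Mt2 as raised at 2 days at Padj below 0.1. edgeR was the stricter method, calling 8 of 12309 genes at 2 days where DESeq2 called 54. At 4 weeks it called 5 of 11211 where DESeq2 called 43. Over the other 8 lists, 3 of 81 genes at 2 days and 3 of 70 at 4 weeks had an unadjusted P below 0.05, beside 5.97% and 4.91% of all genes.

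Of the NR4A receptors, Nr4a3 had a log2 fold change of -1.79 at 2 days (edgeR Padj = 0.644) and Nr4a2 one of -0.53 (Padj = 0.933). At 4 weeks the values were 0.60 and 0.74, with Padj of 0.994 and 0.990 in edgeR. The AP-1 relatives with the lowest P were Jund (0.58) and the small Maf protein gene Maff (2.16) at 2 days. At 4 weeks they were Fosl2 (1.62) and Jund (0.24), and all had edgeR Padj of at least 0.865. Maff lay near the floor at 2 days, at 0.407 to 2.24 CPM in kept vehicle samples and 0 to 8.76 with Cort. No direction was read for Maff. Beside Egr1, the corepressors of EGR factors were at -0.65 for Nab2 at 2 days and at -2.10 for Nab1 and -1.26 for Nab2 at 4 weeks, where Nab1 had an unadjusted P below 0.05 and Padj = 0.918 in edgeR. Its difference between 4 weeks and 2 days was -2.07 (edgeR Padj = 0.714).

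Among other rapidly induced regulators, the clock-linked repressor Bhlhe40 was at -0.42 and Klf10 at -0.80 at 2 days, and Ier5 at 2.71 and Bhlhe40 at -0.44 at 4 weeks. Among effectors induced by activity, Rgs2, which limits G protein signalling, was at 0.51 (edgeR Padj = 0.610) and the secretogranin Scg2 at -0.31 (edgeR Padj = 0.686) at 2 days, and Fbxo33 was at 1.07 and Scg2 at -0.29 at 4 weeks. Of 16 such effectors tested at 2 days, 1 was higher and 1 lower at P below 0.05, beside 3.14% higher and 2.83% lower of all genes tested. The feedback genes Zfp36l1 (0.69) and Spry2 (0.61) led their list at 2 days, and Spry2 (2.04) and the phosphatase Dusp8 (-0.72) at 4 weeks. None of these passed Padj below 0.1 in edgeR.

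All 25 upstream kinases and promoter factors were tested in both datasets. Their medians were -0.11 at 2 days and -0.12 at 4 weeks. The lowest P at 2 days were for the kinases Map2k2 (0.67) and Rps6ka5 (-0.65), and at 4 weeks for the activity-regulated factor Mef2c (1.71, edgeR Padj = 0.918) and the serum response factor partner Elk4 (-0.87). Mef2c differed between the Cort effects at 4 weeks and 2 days by 1.83 (edgeR Padj = 0.714). Among heat shock genes, Hspa1a (-1.27) and Hsph1 (-0.16) led at 2 days and Dnajb1 (1.02) and Hsp90aa1 (0.41) at 4 weeks, with edgeR Padj of 0.899 to 0.990.

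In the difference between Cort effects, the genes with the lowest P in their lists were Fosl1 (4.20) and Fos, Nab1 and Egr1, Nr4a3 (2.38) and Nr4a2 (1.27), Ier5 (3.14) and Nfil3 (3.32), Fbxo33 (1.19) and Bdnf (2.63), Spred1 (-0.37) and Spred2 (0.84), Mef2c and Map2k2 (-1.78), Fkbp5 (-1.79) and Mt1 (0.83), and Hspb1 (6.00) and Hsp90aa1 (0.58). 0 of the 97 listed genes tested were called by edgeR and 5 had P below 0.05, beside 0.0157% and 6.49% of all genes. In the kept 4 week vehicle samples, which enter this contrast and the next, Hspb1 was at 0 CPM. Fosl1, Nfil3, Bdnf and Nptx2 averaged 0.149, 0.448, 0.637 and 0.953 CPM there, under the mean floor of 1.19. Their large values rest on such counts, and no direction was read from them. Fkbp5 ranged from 3.14 to 164.7 CPM in the same samples (mean 62.5, SD 88.9, n = 3). No direction was read from its value in either contrast. Between the vehicle groups edgeR called 1 of 97, beside 1.33% of all genes, the cochaperone Dnajb1, which was lower at 4 weeks (log2 difference -1.38, Padj = 0.0705). The others with the lowest P were Fosl2 (-2.18) and Fosl1 (-3.22), Nab1 (1.03) and Nab2 (1.44), Nr4a3 (-1.74) and Nr4a2 (-0.78), Klf6 (0.71) and Nfil3 (-3.21), Nptx2 (-3.35) and Tiparp (1.24), Zfp36 (2.17) and Dusp8 (-0.45), Mef2d (-0.69) and Ep300 (0.51), Mt1 (-1.29) and Fkbp5 (1.65), and Hspb1 (-5.05), none at Padj below 0.1 in edgeR.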

How the data were processed

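Arcuate RNA was amplified before sequencing (single-end reads, 50 bases). Per the authors' methods, Rsubread aligned the reads to GRCm38 and featureCounts gave the gene totals; strand and multiple-mapping settings are not given in the sources used here. The submitters' processing notes also name CASAVA 1.7 and DESeq2. The authors deposited raw counts per gene for 10 samples per dataset, and these counts were the input. The signal columns deposited by the authors hold size-factor normalised counts of the samples kept. Only their gene symbols were used, and their mean, which was within 1% of that computed from the raw counts for all 16068 and 15430 genes above 0. 14 normalised columns of single samples were not used, because some headers at 2 days do not match the raw column of that name. Fold changes and p-values deposited by the authors were not used.

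Groups came from the labels and the raw columns' treatment, which carry no replicate number. Genes were filtered by edgeR's filterByExpr (minimum count 10), scaled by TMM and tested by the 2-sided quasi-likelihood test, called at Padj below 0.1, in the 7 samples kept per dataset and with no covariate. CPM used TMM factors over 10 samples, and log2 CPM a prior count of 2. The floor was 3 counts per library. Floors cover counting error only, since amplified reads are not independent molecules. Totals of 1065776 to 5748223 counts limit precision for genes of this abundance. Exon lengths, overlaps and GC came from GENCODE annotation of GRCm38, and promoters from RefSeq (GRCm38.p6). Alternatives were DESeq2, upper quartile scaling, other filters, all 10 samples with edgeR or limma voom, leaving out each sample, and a prior count of 0.5. Fits without a filter over all 10 samples, and those leaving out each 4 week sample without a filter, were added after seeing the data. Scripts were tested on simulated data. R 4.3.3, edgeR 4.0.16, limma 3.58.1, DESeq2 1.42.0, Python 3.11.15 (numpy 2.4.6, matplotlib 3.10.9, pandas 2.3.3, scipy 1.17.1) were used. The members and lists were chosen with earlier results of these data known. Named genes were all members, the listed genes at Padj below 0.1, the 2 with the smallest P in each list and comparison, and the 5 most like Fos.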

Additional observations from a re-analysis of the deposited data

Results flagged for a closer look

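In each group of 5 samples with a library above 3 counts, the gap of the highest or lowest log2 CPM (prior count 2) to its nearest neighbour was divided by the group's whole range and set against Dixon's 95% critical value. Of 33 such groups over the 10 genes, 5 had a sample past it. In 2 of the 5, the other 4 libraries were at 0 counts, where the ratio is 1 for any single library above 0, so they carry no chance rate. Of the 31 groups with 2 or more libraries above 0, 3 passed, and 1 in 20 (1.55 groups) would be passed by chance. Jun stood at 91.3 CPM in 2 day vehicle C09, above 37.8 to 48.6 CPM in the other 4. It stood at 1.84 CPM in 4 week vehicle C01, from 2 counts, below 29.1 to 41.6 CPM in the other 4. Ier2 was at 1.24 CPM (5 counts) in 2 day vehicle C02, and the other 4 had at most 1 count. Nr4a1 was at 7.22 CPM (14 counts) in 4 week Cort C09 and Npas4 at 13.5 CPM (43 counts) in 4 week Cort C06, with the other 4 Cort samples at 0 counts in both cases. On the CPM scale itself 9 groups passed, among them Fos in 2 day Cort C10 (10.7 CPM) and 4 week vehicle C02 (16.6), Egr3 in 2 day vehicle C07 (5.47), Fosb in 4 week Cort C09 (20.6) and Egr1 in 4 week Cort C06 (120.3), and Jun in 4 week vehicle C01 did not. C09 at 2 days and C01 and C06 at 4 weeks were among the samples left out by the study, whereas C02 at 2 days and C09 at 4 weeks were kept.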

How the results depend on the processing

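No member was called at Padj below 0.1 in any comparison under any alternative run, and 0 relations with Fos and 0 permutation tests passed 0.05 with a prior count of 0.5. Of the log2 differences of single members, none of them called, 48 of 357 values under an alternative changed sign and the other 309 did not. With all 10 samples the 2 day values became -0.27 for Jun and 0.032 for Egr1, the differences between Cort effects 0.72 for Jun, and the vehicle difference 0.49 for Egr1. With limma voom and quality weights they became -0.046 (2 days) and 0.52 (difference of effects) for Jun, -1.24 for Junb (difference of effects) and -0.45 for Fos (vehicle). Upper quartile scaling gave -0.023 for Jun at 4 weeks. Over all 10 samples without a filter the values were -0.28 for Jun and 0.023 for Egr1 at 2 days and 0.26 for Arc at 4 weeks. The cause was not tested. Leaving out 1 sample at a time gave at 2 days -0.51 to 0.79 for Fos, -0.24 to 1.34 for Junb and -1.20 to 0.97 for Arc, and at 4 weeks, with and without a filter on low counts, -0.29 to 0.19 for Jun, -0.35 to 1.34 for Egr1 and -1.45 to 1.42 for Arc. The differences of effects ran from -3.36 to 0.44 for Fos, -0.43 to 0.043 for Jun, -5.51 to 1.01 for Nr4a1 and -1.10 to 2.09 for Arc, and the vehicle differences from -2.38 to 1.43 for Fos, -0.24 to 0.011 for Jun, -1.0 to 0.38 for Nr4a1 and -2.30 to 0.88 for Arc. With all 10 samples, members above the trend of variation numbered 5 of 6 rather than 3 of 6 at 2 days and 1 of 2 rather than 2 of 3 at 4 weeks, and listed genes called 1 rather than 0 at 2 days and 3 rather than 1 between vehicle groups. A minimum of 10 counts in every sample kept few members, since most had a library at or under the floor. No paired analysis was possible because the count columns carry none of the replicate numbers in the labels. Precision is limited by low counts, where a zero allows up to 3, and by the spread between samples: Jun at 4 weeks had 52 to 242 counts in the kept libraries and an interval of -1.40 to 1.42.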
